A study of Mus musculus with 9 samples.

Results

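UBTF peak lists of malignant Eµ-Myc pre-B cells were set against those of premalignant Eµ-Myc pre-B cells, gene by gene, at the starts of protein-coding genes. Each list was cut to its best 75000 peaks outside the ribosomal RNA gene repeats (rDNA), and a gene was counted in a list when a peak summit lay within 1 kb of its start, which is called a start summit here. Of 22367 protein-coding genes, 197 had a start summit in both malignant lists and in neither premalignant list (malignant-only genes, 0.881% of all), and 106 had one in both premalignant lists and in neither malignant list (premalignant-only genes, 0.474% of all). The gene sets were chosen by presence in these lists, so presence and rank in them are descriptions and carry no test.

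The comparison used 4 of the 9 samples of the series, 2 for each stage, and 2 wild type lists were added as a measure that did not choose the genes. All mice were C57BL/6. Eµ-Myc animals were heterozygous for a transgene in which the immunoglobulin heavy chain enhancer drives the MYC oncogene in B cells, and wild type littermates lacked it. Wild type and premalignant cells came from females of 4 to 6 weeks, and malignant cells from females and males of 10 to 20 weeks, taken when a spontaneous lymphoma had formed, so stage, age and, in part, sex cannot be told apart. The labels give a single bone marrow gate for all cells, with B220 high and IgM and IgD low, whereas the study's methods give it for wild type and premalignant pro-B and pre-B cells and describe the malignant pre-B cells as B220+, IgM- and IgD-, so a difference in gate cannot be told apart from stage. Each replicate was described as a separate animal. The 3 input samples, 1 for each stage, were not analysed here.

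UBTF is the architectural factor that loads onto rDNA repeats, bends their DNA and keeps them open for RNA polymerase I. It also binds away from rDNA, and open, GC-rich starts of genes read by RNA polymerase II are among the sites known for it. MYC drives ribosome production at several of its steps, and Eµ-Myc mice pass from a phase of expanding B cell progenitors to a clonal lymphoma.

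The lists were not alike within a stage. Premalignant replicate 1 was the shortest list, and its best 75000 peaks were 96.1% of it, against 13.0% of premalignant replicate 2, 26.9% of malignant replicate 1 and 13.3% of malignant replicate 2. Kept peaks had a median width of 2005 bp in premalignant replicate 1, 6528.5 bp in premalignant replicate 2, and 3226 and 3877 bp in malignant replicates 1 and 2. The median GC content of 201 bp around start summits was 71.1% and 70.6% in premalignant and malignant replicate 1, and 78.9% and 78.6% in premalignant and malignant replicate 2. Replicate 2 of both stages therefore stood apart from the other lists, including wild type at 71.6% and 73.1%. Of the kept peaks, 239 lay on chromosome Y in premalignant replicate 2, against 107 to 123 in each of the other 5 lists. Its long list held start summits at 9 of the 17 genes of chromosome Y, against 1 to 3 in the others, although premalignant animals were described as female, and the part of this in the results was not tested.

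**Figure D1:**
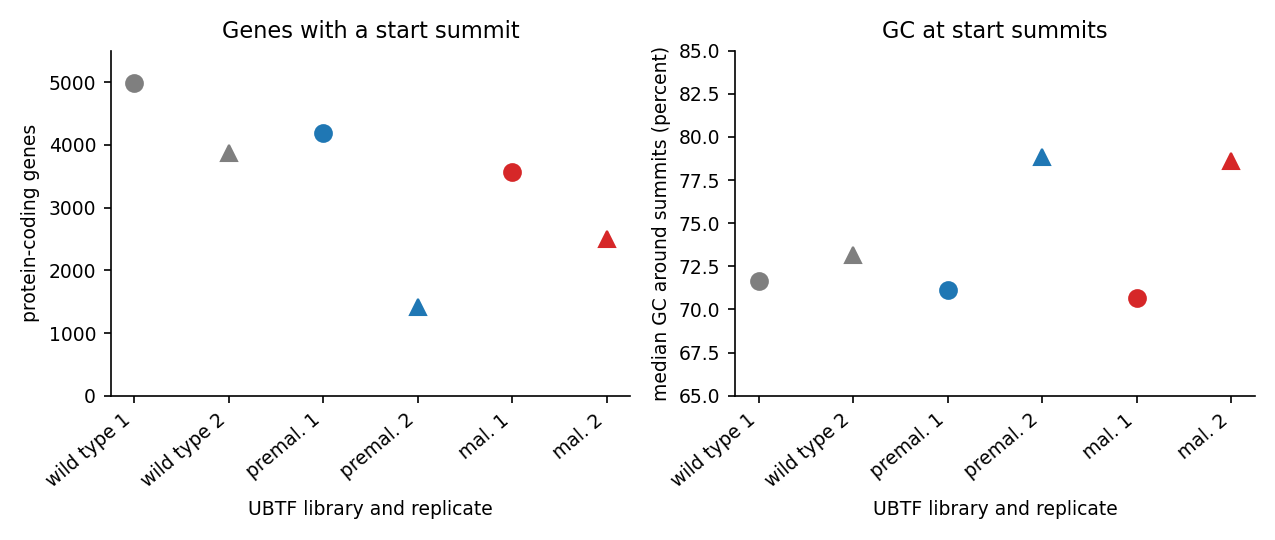
Left, number of protein-coding genes with a start summit among the best 75000 peaks of each UBTF library; right, median GC content (percent) of 201 bp around start summits. Circles are replicate 1 and triangles replicate 2, in grey for wild type, blue for premalignant and red for malignant; replicate 2 of the premalignant and malignant stages had fewer genes and a GC median near 79%, against 70.6% to 73.1% elsewhere.

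Whether UBTF moved to or away from gene starts at malignancy was asked first over all genes. A start summit was found at 4181 genes (18.7%) in premalignant replicate 1 and 1411 (6.31%) in replicate 2, and at 3571 (16.0%) and 2495 (11.2%) in malignant replicates 1 and 2. Both premalignant values lay outside the range of the malignant values, one above and the other below. The premalignant mean was 2796 ± 1959 genes and the malignant mean 3033 ± 761 (SD, n = 2), a difference of 237 that did not exceed the spread between replicates (two-sided exact permutation p = 1, where 2 against 2 cannot give less than 0.333). The direction was not shared by the replicate numbers, with -610 genes between replicates 1 and 1084 between replicates 2. Without premalignant replicate 2 the difference was -1148, without malignant replicate 1 it was -301, and against premalignant replicate 2 alone it was 1622. In whole lists, which differ in length, it was 3379 (two-sided exact permutation p = 0.333, the smallest possible). There 9618 and 7780 genes in malignant replicates 1 and 2 stood above 4328 and 6312 in the premalignant lists. With 1 summit per merged region it was 1329.5 (two-sided exact permutation p = 0.667).

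The share of kept summits that lay at a gene start did not separate the stages either. It was 6.18% and 1.82% in the premalignant lists and 4.92% and 3.24% in the malignant lists, where 1.59% of the genome lies within 1 kb of a start. The share of summits was thus 3.88 and 1.14 times the share of the genome in premalignant cells, and 3.09 and 2.03 times it in malignant cells. The means of 3.996 ± 3.08% and 4.08 ± 1.19% (SD, n = 2) differed by 0.0813 percentage points (two-sided exact permutation p = 1), with -1.26 between replicates 1 and 1.42 between replicates 2. Median GC at start summits averaged 75.0 ± 5.45% over the premalignant and 74.6 ± 5.63% over the malignant lists (SD, n = 2), a difference of -0.37 points that also did not exceed the spread (two-sided exact permutation p = 0.667).

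Most genes marked in only some lists did not follow the stages. Of the 6837 genes with a start summit in any of the 4 lists, 3615 were in 1 list, 2024 in 2, 797 in 3 and 401 in all 4. Among genes in exactly 2 lists, 1109 were in replicate 1 of both stages and 240 in replicate 2 of both stages, more than the 197 shared by the malignant lists and the 106 shared by the premalignant lists. Premalignant replicate 1 shared 314 such genes with malignant replicate 2, and premalignant replicate 2 shared 58 with malignant replicate 1. The 197 malignant-only genes used 184 distinct pairs of summits, since 25 of them shared their summits with a neighbouring member, and the 106 premalignant-only genes used 102, with 8 genes sharing. Without premalignant replicate 1 the malignant-only count was 571 and the premalignant-only count 289, and without premalignant replicate 2 they were 297 and 1660. Without malignant replicate 1 the counts were 888 and 251, and without malignant replicate 2 they were 1384 and 284.

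**Figure D2:**
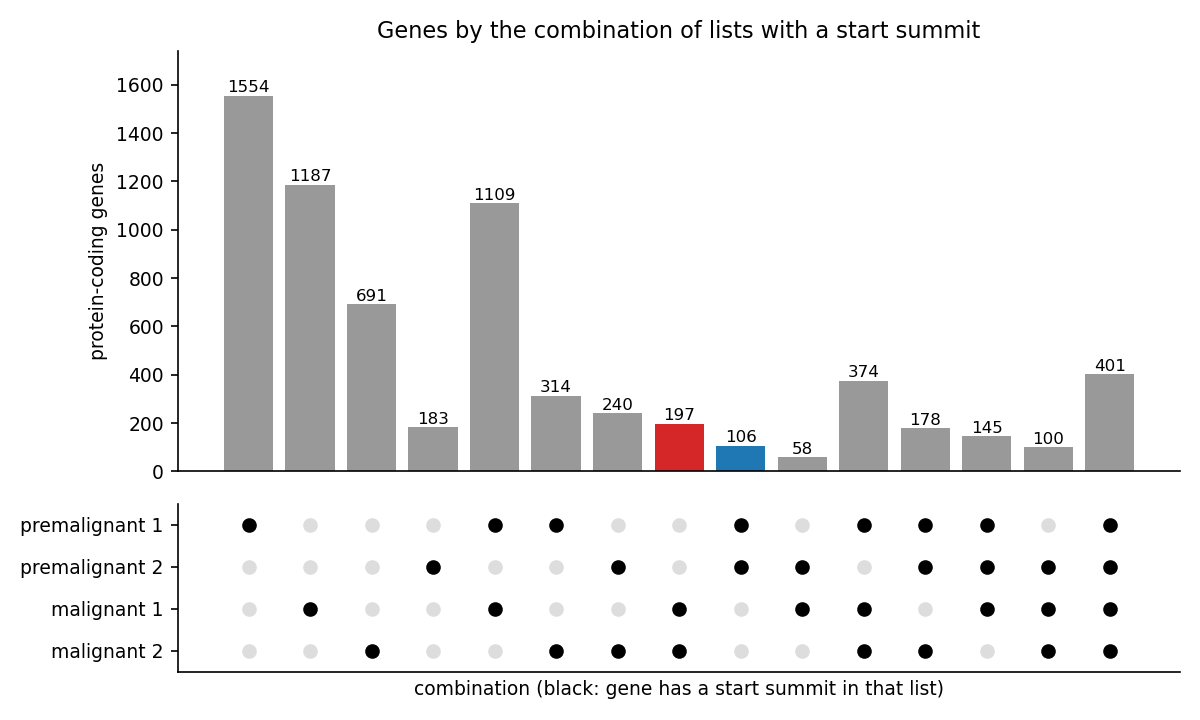
Bars give the number of protein-coding genes with a start summit in each combination of the 4 lists, shown by black dots under the bar; genes in none are left out. The malignant-only bar (red, 197) and the premalignant-only bar (blue, 106) are both lower than the bars for replicate 1 of both stages (1109) and replicate 2 of both stages (240).

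The malignant-only genes with the best ranks encode signalling, RNA-binding, membrane and transcription proteins. Rank 1 is the peak with the highest score outside rDNA in a list, so a low rank is a strong peak. Pkn2, a serine/threonine kinase that acts on the cytoskeleton, led the set, with rank 8192 in malignant replicate 1 and 2344 in malignant replicate 2. It had no start summit in premalignant replicate 1 and a summit of rank 183877 in the long list of premalignant replicate 2. Brf1, a subunit of the TFIIIB factor that places RNA polymerase III on tRNA and 5S rRNA genes, had ranks of 10578 and 11893 in the malignant lists, none in premalignant replicate 1, and 166816 in the long list of premalignant replicate 2. Pcgf6, a subunit of a Polycomb repressive complex, had ranks of 11131 and 9632 in malignant cells and came close to the limit in premalignant replicate 2, at 79537. Both malignant ranks of these genes lay well inside the limit, and the premalignant summits lay outside it or were absent. Both points follow from the way the genes were chosen and named. Since 96.1% of the list of premalignant replicate 1 was kept, few of its summits could lie beyond the limit.

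The other genes among the 12 with the lowest mean rank had malignant ranks between 2939 and 18087. They were Nanos1, a translational repressor of germ cells, Agrn, a proteoglycan that organises the neuromuscular synapse, Celf4, an RNA-binding splicing factor, Cds2, an enzyme of phospholipid synthesis, Kcnq5, a voltage-gated potassium channel, Atp5d, a subunit of ATP synthase, Twf2, an actin-binding protein, and the neighbours Noxo1 and Gfer, which share 1 pair of summits between their divergent starts. None of the 12 had a start summit in premalignant replicate 1, and all had one beyond rank 75000 in the long list of premalignant replicate 2, between 79537 and 183877. The start region of Celf4 is made of sequence that recurs in the genome. Of all 197 genes, 162 had a start summit somewhere in the long list of premalignant replicate 2, 11 in the rest of the list of premalignant replicate 1, and 34 in neither.

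**Figure D3:**
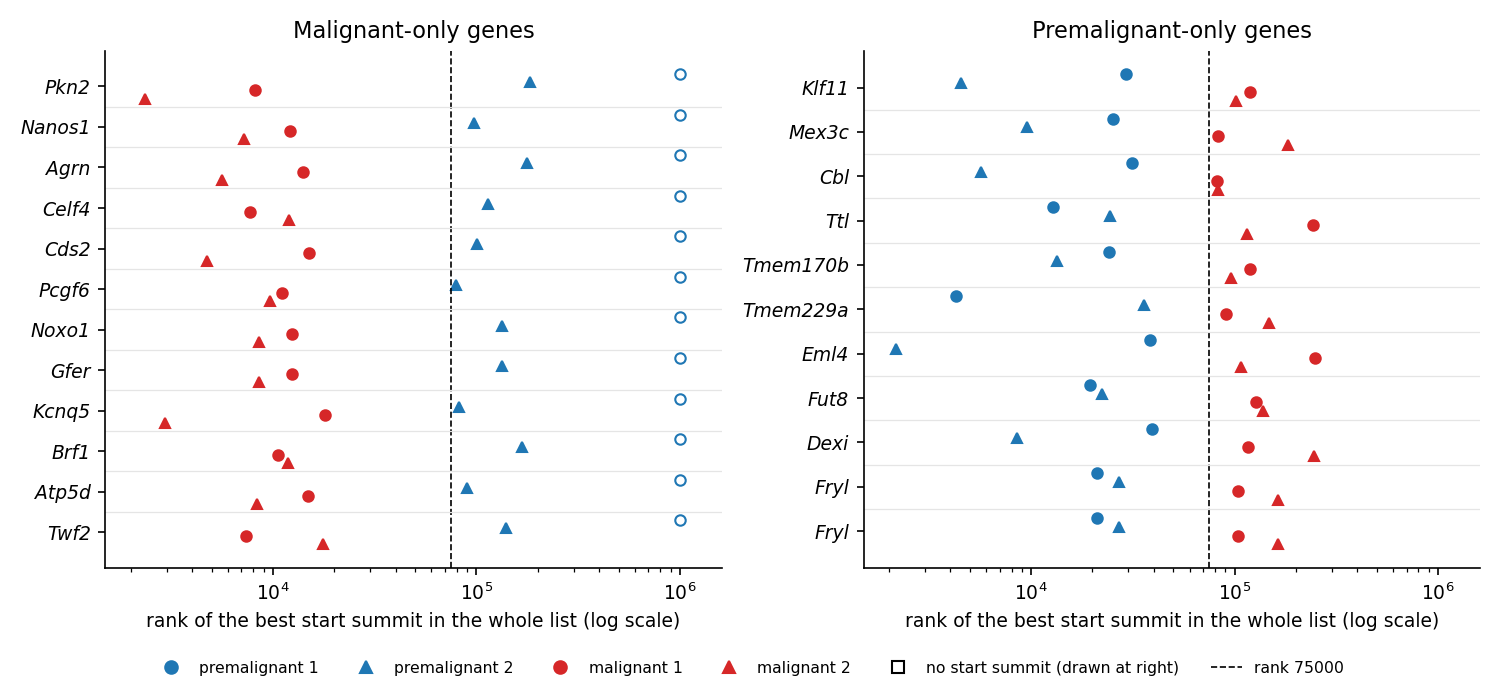
Rank of the best start summit in the whole list outside rDNA (log scale, low is strong) for the 12 malignant-only genes (left) and 11 of the 12 premalignant-only genes (right) with the lowest mean rank; Fryl appears for each of its 2 gene entries. Filled symbols are ranks, open symbols at the right are lists with no start summit, and the dashed line is rank 75000; all other-stage summits lie to the right of the line by the choice of the genes, and premalignant replicate 1 (blue circles) has none at the malignant-only genes.

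Among the 34 malignant-only genes with no start summit in either whole premalignant list were regulators of RAS signalling. Nf1, the GTPase-activating protein that switches RAS off, had ranks of 38123 and 8842 in malignant replicates 1 and 2, and its start summits lay 369 and 250 bp after the start on chromosome 11. Mapk3, the gene of the kinase ERK1, had ranks of 48679 and 2549, with summits 135 bp after and 15 bp before the start on chromosome 7. Both genes were nearer the limit in malignant replicate 1 than in malignant replicate 2. In wild type, Nf1 and Mapk3 had start summits in replicate 1, at ranks 55054 and 58346, and none in replicate 2. The 10 with the lowest mean rank here also included Ssbp2, Plch2, 1110020G09Rik, Midn, Zfat, Ube2v1 and Ptprz1, of which Plch2, a phospholipase C, had no start summit in any wild type list.

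Premalignant-only genes were led by Klf11, a zinc finger transcription factor of the TGF-beta pathway, with rank 29125 in premalignant replicate 1 and 4502 in premalignant replicate 2. Its malignant summits stood at ranks 118905 and 101495 of the whole lists. Cbl, a ubiquitin ligase that turns off receptor and cytokine kinases in blood cells, had ranks of 31396 and 5690 in premalignant cells, and 81613 and 82427 in malignant cells, so it missed the limit in both malignant lists by a small margin. Eml4, which binds microtubules, had the best single rank of the set, 2173 in premalignant replicate 2, beside 38393 in premalignant replicate 1 and 249290 and 107019 in the malignant lists.

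The others described of the 12 had premalignant ranks between 4282 and 39285. They were Mex3c, an RNA-binding ubiquitin ligase, Ttl, which adds tyrosine to tubulin, Fut8, which adds the core fucose of N-glycans, Tmem170b, Tmem229a, Dexi and the 2 entries of Fryl. Malignant summits were present beyond the limit at 103 premalignant-only genes. The remaining 3 of the 106 had none in either whole malignant list, against 34 of the 197 malignant-only genes with none in either whole premalignant list, and the lengths of the lists differ between the stages. These were Zfp839, Slc2a1, which encodes the glucose transporter GLUT1, and Ifi204, an interferon-induced DNA sensor. Slc2a1 had ranks of 36937 and 40382 in premalignant cells, and Ifi204 had 74965 and 8794, the first of them just inside the limit.

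Both limits of the choice passed close to members. Among the malignant-only genes 2410016O06Rik was just inside the limit on rank at 74961, and Podxl, at 75518 in malignant replicate 2, was just outside. Ssbp3 was inside on distance, with its farther summit 959 bp from the start, and a premalignant summit lay 1035 bp from the start of Ccr3, just outside 1 kb. Among the premalignant-only genes Rnf130 was just outside on rank at 75261, Tle1 just inside on distance at 995 bp, and a malignant summit lay 1071 bp from the start of Nr2c2. For 41 genes of each set the best other-stage summit had a rank of at most 100000, and for 3 malignant-only and 6 premalignant-only genes a kept peak region of the other stage covered the start although its summit lay farther away. The nearest kept summit of the other stage lay at a median of 15463 bp for malignant-only and 22867 bp for premalignant-only genes.

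The sequence just before the start is printed for 3 malignant-only and 4 premalignant-only genes, chosen because they lead a set or belong to a pathway described here. Each is the 250 bases before the start of the gene in the mm9 genome, read 5′ to 3′ on the strand of the gene, and capitals mark the letters CACGTG, the E-box that MYC with MAX is known to bind, and GGGCGG or its reverse complement, the GC box. Malignant-only genes are Pkn2 (chr3:142544969-142545218, minus strand), Brf1 (chr12:114238833-114239082, minus strand) and Mcl1 (chr3:95462393-95462642, plus strand). Premalignant-only genes are Klf11 (chr12:25335986-25336235, plus strand), Cbl (chr9:44042130-44042379, minus strand), Mxi1 (chr19:53384746-53384995, plus strand) and Slc2a1 (chr4:118781066-118781315, plus strand).
Pkn2: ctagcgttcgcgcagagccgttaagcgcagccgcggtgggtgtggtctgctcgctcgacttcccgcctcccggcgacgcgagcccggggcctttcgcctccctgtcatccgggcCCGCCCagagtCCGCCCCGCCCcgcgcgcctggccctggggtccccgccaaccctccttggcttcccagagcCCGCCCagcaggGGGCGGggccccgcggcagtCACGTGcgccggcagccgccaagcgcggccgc
Brf1: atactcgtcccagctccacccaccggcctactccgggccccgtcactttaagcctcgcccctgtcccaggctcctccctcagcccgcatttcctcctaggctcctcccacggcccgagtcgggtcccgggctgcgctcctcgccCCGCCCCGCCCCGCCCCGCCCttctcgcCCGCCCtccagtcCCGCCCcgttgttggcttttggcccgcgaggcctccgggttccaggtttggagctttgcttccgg
Mcl1: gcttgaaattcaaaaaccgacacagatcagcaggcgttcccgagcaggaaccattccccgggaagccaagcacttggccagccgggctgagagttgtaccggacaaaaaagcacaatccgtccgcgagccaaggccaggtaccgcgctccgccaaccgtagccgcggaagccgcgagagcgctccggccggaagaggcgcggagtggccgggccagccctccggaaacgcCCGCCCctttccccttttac
Klf11: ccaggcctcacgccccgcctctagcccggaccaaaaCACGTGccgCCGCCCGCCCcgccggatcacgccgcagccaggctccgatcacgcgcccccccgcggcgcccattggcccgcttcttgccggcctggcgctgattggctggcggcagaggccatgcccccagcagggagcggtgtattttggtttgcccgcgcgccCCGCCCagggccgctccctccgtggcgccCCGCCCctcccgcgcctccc
Cbl: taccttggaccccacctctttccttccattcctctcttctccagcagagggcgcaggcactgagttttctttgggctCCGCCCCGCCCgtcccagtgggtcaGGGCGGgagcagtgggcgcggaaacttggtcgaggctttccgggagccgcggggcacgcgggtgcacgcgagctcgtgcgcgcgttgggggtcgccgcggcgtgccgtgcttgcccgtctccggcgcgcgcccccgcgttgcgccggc
Mxi1: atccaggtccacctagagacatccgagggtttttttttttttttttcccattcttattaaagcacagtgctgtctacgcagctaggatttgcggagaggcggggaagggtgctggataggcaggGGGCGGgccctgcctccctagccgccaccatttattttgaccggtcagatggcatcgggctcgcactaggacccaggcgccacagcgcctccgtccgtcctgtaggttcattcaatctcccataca
Slc2a1: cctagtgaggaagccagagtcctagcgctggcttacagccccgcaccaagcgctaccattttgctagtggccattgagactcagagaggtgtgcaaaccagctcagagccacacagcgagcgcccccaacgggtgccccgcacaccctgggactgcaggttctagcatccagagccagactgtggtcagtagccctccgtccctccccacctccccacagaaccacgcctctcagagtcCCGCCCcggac

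Pkn2 and Klf11, the leading gene of each set, each held 1 E-box in these stretches, together with 5 and 4 GC boxes, and the other 5 stretches held none of the E-box. Brf1 held 6 GC boxes, most of them in tandem, Cbl held 3, and Mcl1, Mxi1 and Slc2a1 1 each. GC content was 77.6% and 76.8% in Pkn2 and Klf11, 71.6% in Brf1 and Cbl, and 64.4%, 63.2% and 55.2% in Mcl1, Slc2a1 and Mxi1. Slc2a1 and Mxi1, both premalignant-only, were below every malignant-only stretch printed here.

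Over all members the sequence around the starts was rich in GC in both sets. Median GC content of 1001 bp centred on the start was 65.2% in malignant-only and 65.7% in premalignant-only genes, against 62.2% over genes in any of the 4 lists and 54.7% over all protein-coding genes. The ratio of observed to expected CpG had medians of 0.844 and 0.878, against 0.782 over genes in any list and 0.549 over all genes. In the window from 250 bases before to 50 after the start, the GC box GGGCGG occurred on either strand in 74.6% of malignant-only and 80.2% of premalignant-only genes, against 69.0% of genes in any list and 43.4% of all genes. Every member of either set also had to be in a replicate 2 list. Over all genes with a start summit in premalignant and malignant replicate 2, median GC was 66.4% and 65.8%. Their median CpG ratio was 0.854 and 0.838, and the GC box occurred in 76.0% and 74.3% of them. The sets were thus close to the replicate 2 lists in these measures. The E-box CACGTG, which reads the same on both strands, occurred in 19 malignant-only genes (9.64%), among them Yap1, Vav2 and Atf1, and in 18 premalignant-only genes (17.0%), among them Foxm1 and Ahr, against 9.98% of genes in any list and 7.78% of all genes. The difference between the sets was not tested. Yap1, a co-activator of growth genes, Foxm1, a factor of the G2 to M transition, and the others named here for the E-box were chosen after their values were seen.

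The CCAAT letters, known from the start of cell cycle genes, occurred in 26.4% of the windows of both sets, in 33.5% of genes in any of the 4 lists and in 37.9% of all genes. Over all genes with a start summit in premalignant and malignant replicate 2 the shares with CCAAT were 27.7% and 29.0%. TATAAA occurred in 6.60% and 4.72%, against 6.87% of genes in any list and 13.4% of all genes. Start summits lay close to the starts, at a median distance of 225 and 191 bp in malignant replicates 1 and 2 for malignant-only genes, and of 258.5 and 251 bp in premalignant replicates 1 and 2 for premalignant-only genes. They fell before the start in 33.0% and 34.5% of the malignant-only genes and in 37.7% and 25.5% of the premalignant-only genes. GC content at the summits kept the split between replicate numbers, with medians of 74.1% and 77.6% in malignant replicates 1 and 2 and of 75.1% and 79.1% in premalignant replicates 1 and 2. Starts whose sequence recurs in the genome, with a median of more than 1 copy of the 24-base words around them, were 10 of the malignant-only genes and 1 of the premalignant-only genes (5.08% and 0.943%), against 4.67% of genes in any list and 9.52% of all genes.

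The wild type lists, which did not choose the genes, held start summits at most members of both sets when the best 75000 peaks of every list were used. A wild type start summit was present at 132 of 197 malignant-only genes (67.0%, 95% exact binomial interval 60.0% to 73.5%) and at 79 of 106 premalignant-only genes (74.5%, 65.1% to 82.5%), and these intervals cover counting error over genes only and overlap. The same share was 63.9% over genes in any of the 4 lists and 27.0% over all protein-coding genes. Both wild type lists held the gene for 36.0% of malignant-only and 34.9% of premalignant-only genes, beside 35.3% over genes in any of the 4 lists. The value of 63.9% lay inside the interval of the malignant-only genes and below that of the premalignant-only genes. Of the 6837 genes behind it, 3615 were in 1 list only, whereas each set needed 2 lists, so these shares are not strictly comparable. The shares moved with the lists, to 44.0% and 56.3% for malignant-only and premalignant-only genes with the best 25000 peaks, and to 43.8% and 88.0% without malignant replicate 1. Brf1, for example, was at ranks 19077 and 30598 in wild type, and Cbl at 41776 and 35610.

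**Figure D4:**
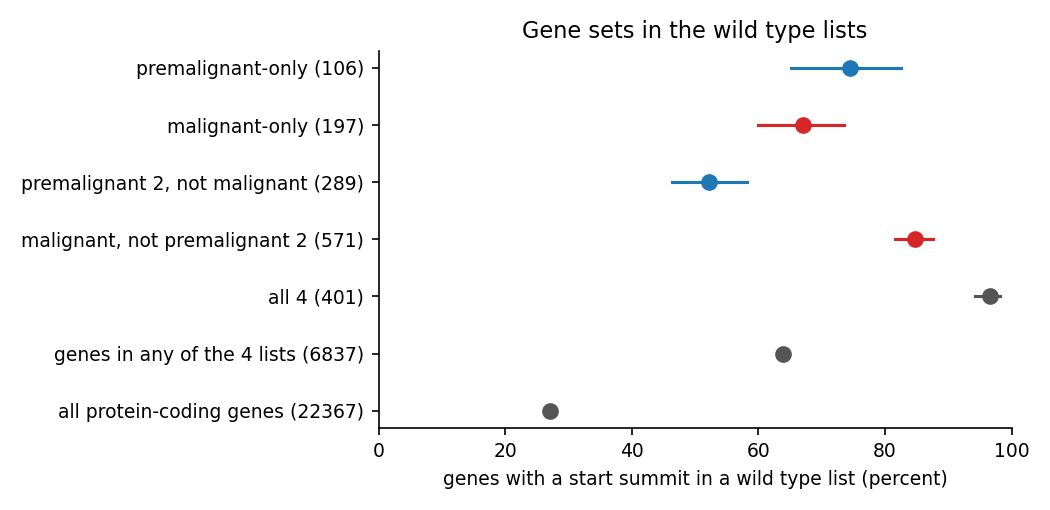
Percent of each gene set with a start summit in at least 1 wild type list (number of genes in brackets); bars are 95% exact binomial intervals and cover counting error only. The malignant-only (67.0%) and premalignant-only (74.5%) sets stand beside 63.9% for genes in any of the 4 lists, a value inside the interval of the first and below that of the second, and genes in all 4 lists reach 96.5%.

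Premalignant replicate 2 was also set against the malignant lists on its own, since premalignant replicate 1 is a short list of narrow peaks. A start summit in both malignant lists and not in premalignant replicate 2 was found at 571 genes (2.55% of all), of which 374 had one in premalignant replicate 1. The reverse, a start summit in premalignant replicate 2 and in neither malignant list, was found at 289 genes (1.29% of all), of which 106 had one in premalignant replicate 1. With malignant replicate 1 left out, the counts were 1576 and 492, and with malignant replicate 2 left out they were 2867 and 707. With the best 25000 peaks the excess turned, with 146 genes in the malignant lists and 150 in the reverse. Of the 571 genes, 487 had a start summit beyond rank 75000 in the long list of premalignant replicate 2, and of the 289, all but 10 had one in a whole malignant list.

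H3f3a, which encodes the replication-independent histone H3.3, led the genes of the malignant lists here, with ranks of 1948 and 2607 in malignant replicates 1 and 2, 9931 in premalignant replicate 1 and 240997 in the long list of premalignant replicate 2. It was better ranked in each malignant list than in either premalignant list. Prex1, an exchange factor for RAC proteins, had malignant ranks of 4933 and 5786, 31681 in premalignant replicate 1 and no summit in premalignant replicate 2. Whsc1l1, an H3K36 methyltransferase, had 2739 and 6907 in malignant cells against 19213 in premalignant replicate 1. In contrast, Stk3, a kinase of the Hippo pathway, had 1837 in premalignant replicate 1, between its malignant ranks of 1576 and 9874, so its place in this set rests on premalignant replicate 2. The others of the 12 were 1700047I17Rik2, AU018091, Rftn2, Fam177a, Zmynd11, Tram2, Dytn and Pkn2.

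In the reverse direction Eml4, Klf11 and Cbl came again, at ranks 2173, 4502 and 5690 of premalignant replicate 2. Zc3h14, a protein that binds poly(A) tails, had rank 3493 there, no start summit in premalignant replicate 1 or malignant replicate 1 and rank 118555 in malignant replicate 2. Adrbk1, the receptor kinase GRK2, had rank 5418, none in premalignant replicate 1, and 102765 and 149787 in the malignant lists. The remaining genes of the 12 were Gm11554, Ncs1, Glyatl3, Ssx2ip, Klhl29 with its neighbour 2810032G03Rik, and Gm1758, none of which had a start summit in premalignant replicate 1. A wild type start summit was present at 84.8% of the 571 genes and at 52.2% of the 289, beside 63.9% of genes in any of the 4 lists. In premalignant replicate 1, which marked 18.7% of all genes, 65.5% of the former and 36.7% of the latter were marked. The 571 genes needed a summit in 2 lists and the 289 in 1, so the 2 shares are not comparable.

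At the 401 genes marked in all 4 lists (1.79% of all), ranks could be compared in lists of equal length. Both malignant ranks were better than both premalignant ranks at 72 genes, 18.0% of the 401, and both premalignant ranks were better at 25 genes, 6.23%. The remaining genes had ranks that overlapped between the stages. Some genes fall in each direction under a random order of the lists, and the 2 shares were not tested against it. In whole lists the order turned, with 183 genes better in malignant and 228 better in premalignant cells. These counts are not out of the 401 genes, and whole lists are not of equal length. Premalignant replicate 1 has 78074 peaks outside rDNA, against 279021 to 575596 in the other lists compared. No rank in premalignant replicate 1 can exceed 78074, so the turn cannot be read as a change between stages. With 1 library left out, 204 to 259 genes were better in malignant and 117 to 220 better in premalignant cells. These were counted among genes marked in all the remaining lists, which are more than the 401. Ino80d, a subunit of the INO80 chromatin remodeller with the lowest mean malignant rank of the 401, did not separate the stages, and ranked 103 and 53 in the premalignant lists and 109 and 49 in the malignant lists.

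The largest shift to a better rank in malignant cells was at Nin, which encodes the centrosomal protein ninein, with ranks of 71611 and 61535 in premalignant replicates 1 and 2 and of 9796 and 7569 in malignant replicates 1 and 2. Sp3, a factor that binds GC boxes, ranked 26072 and 73032 in the premalignant lists and 8871 and 4784 in the malignant lists. Among gene-list members with smaller shifts, Ccne1, the gene of cyclin E1, which drives entry into S phase, had 20899 and 46947 in the premalignant lists and 6068 and 6593 in the malignant lists. Bach2, a repressor needed for B cell development, had 32449 and 49370 against 23309 and 20318. The largest shifts after that of Nin were at Sh3rf1, Sp3, Luzp1 and the neighbours Znfx1 and 1500012F01Rik.

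In the opposite direction Rbm33 had the largest shift, from 5553 and 30694 in premalignant to 71848 and 65763 in malignant cells. Setd1b, which methylates histone H3 at lysine 4, had 14151 and 37923 in the premalignant lists and 60751 and 73434 in the malignant lists. Phf2, a histone demethylase, had 18832 and 5179 against 34415 and 67863. Gria3, a glutamate receptor subunit, and Zfp280d completed the 5.

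Genes of pathways relevant to MYC and UBTF were described next, with the share of all protein-coding genes in each list as the background (18.7% and 6.31% in premalignant replicates 1 and 2, 16.0% and 11.2% in malignant replicates 1 and 2). The RNA polymerase I machinery, which UBTF serves on rDNA, had start summits at 5 and 2 of 25 genes in premalignant replicates 1 and 2 and at 5 and 2 in malignant replicates 1 and 2, near the background, and none of the 25 was malignant-only or premalignant-only. Ubtf itself had ranks of 7619 and 1905 in premalignant replicates 1 and 2 and of 4929 in malignant replicate 1, and fell beyond the limit in malignant replicate 2, at 117014. Of 73 nucleolar factors of ribosome assembly, 17 and 0 were marked in the premalignant and 12 and 5 in the malignant lists. Of 85 cytosolic ribosomal protein genes, 13 and 2 were marked in the premalignant and 12 and 1 in the malignant lists, and Rpl17 was malignant-only. Among 27 genes of the RNA polymerase III machinery, 8 and 1 were marked in the premalignant lists and 4 and 4 in the malignant lists, and Brf1 was the only gene in either set.

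The 67 replication-dependent histone genes, which encode the core and linker histones made in S phase, divided by replicate number and not by stage. Start summits were found at 55 of them in premalignant replicate 1, 50 in malignant replicate 1, and 51 and 48 in wild type, and at 0 in replicate 2 of both the premalignant and the malignant stage. In the long lists of those replicates, 12 and 20 histone genes had a start summit. Many of these genes are close copies of each other, and the study's methods name bowtie2 with default options, under which a read that matches several copies equally well is reported at 1 of them, picked at random. The methods name no other mapping for any of the libraries. Whether mapping has a part in the division by replicate number was not tested. Myc showed the same division, with ranks of 6196 in premalignant replicate 1 and 1380 in malignant replicate 1, and no start summit in either whole list of replicate 2. Myc and Ubtf were singled out after their values were seen.

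**Figure D5:**
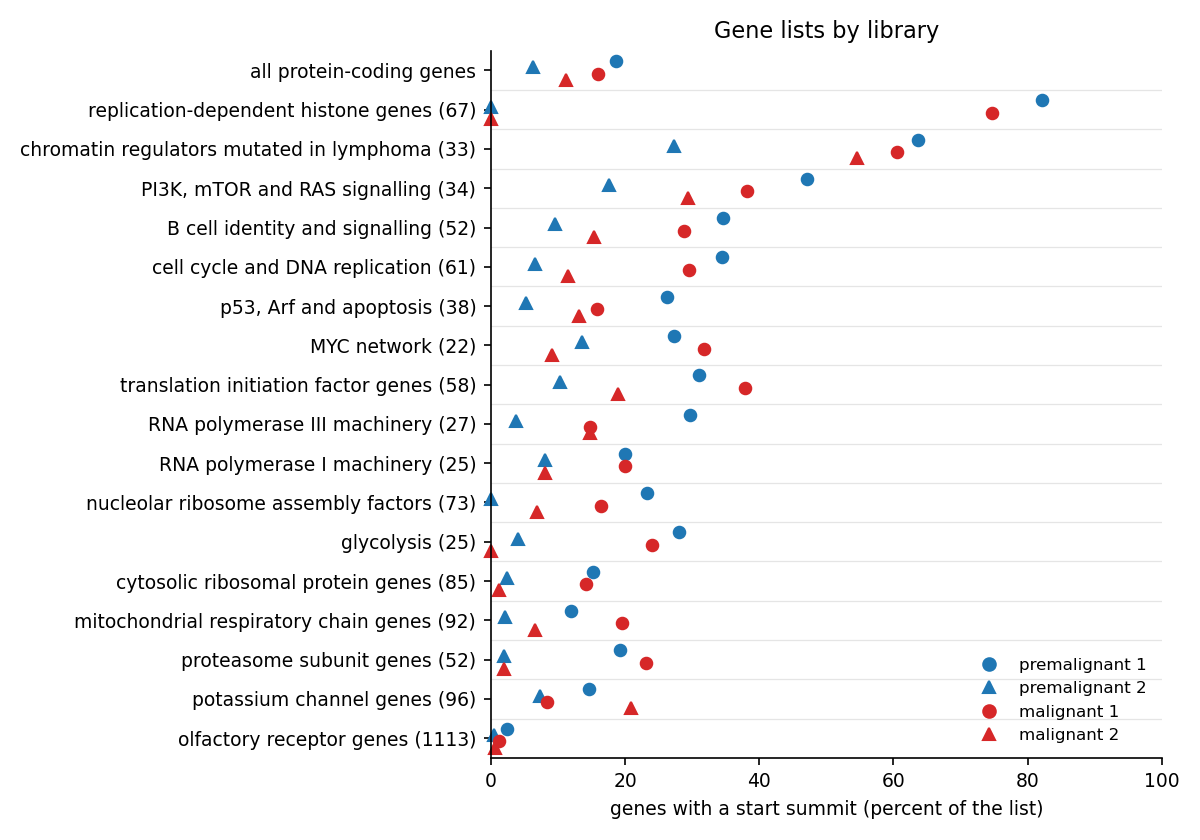
Percent of the genes of each list (number of genes in brackets) with a start summit in premalignant (blue) and malignant (red) replicates 1 (circles) and 2 (triangles), with all protein-coding genes in the top row. Replication-dependent histone genes are at 0 in replicate 2 of both stages and at 82.1% and 74.6% in premalignant and malignant replicate 1, and in most rows the symbols group by shape more than by colour.

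Among 22 genes of the MYC network, 6 and 3 were marked in the premalignant lists and 7 and 2 in the malignant lists. Mxi1, which pairs with MAX and opposes MYC, was premalignant-only, with ranks of 34632 and 24267 in premalignant replicates 1 and 2 and of 235406 and 249204 in the whole malignant lists. Mycl1, which encodes L-MYC, was marked in premalignant replicate 2 alone, at 52953. Mlxip and Trrap were marked in both malignant lists and in premalignant replicate 1. The shares of this network were 27.3% and 13.6% in the premalignant lists and 31.8% and 9.09% in the malignant lists, each higher in replicate 1. The background was also higher in replicate 1, with 18.7% against 6.31% in the premalignant and 16.0% against 11.2% in the malignant lists.

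The PI3K, mTOR and RAS list had 16 and 6 of 34 genes marked in the premalignant lists and 13 and 10 in the malignant lists, above the background in each of the 4 lists. Nf1 and Mapk3 were malignant-only and none was premalignant-only. Pik3ca and Rictor were marked in all 4 lists with ranks that overlapped between the stages. Of 38 genes of the p53, Arf and apoptosis list, 10 and 2 were marked in the premalignant lists and 6 and 5 in the malignant lists. Mcl1, which keeps B cell progenitors alive by holding BAX and BAK in check, was the malignant-only member, with ranks of 52316 and 13179, none in premalignant replicate 1 and 223719 in the long list of premalignant replicate 2.

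Chromatin regulators mutated in lymphoma had the highest share of these pathways in replicate 2 of both stages, and the highest after the histone genes in replicate 1. They were marked at 21 and 9 of 33 in the premalignant lists and 20 and 18 in the malignant lists. Of the 33, 8 (24.2%) were in all 4 lists, among them Ep300, Setd2, Mll2 and Ezh2, where the same share was 1.79% over all genes. Crebbp, a histone acetyltransferase, was malignant-only, with ranks of 64175 and 22069 in malignant replicates 1 and 2, none in premalignant replicate 1 and 102734 in the long list of premalignant replicate 2. Dnmt3a, a de novo DNA methyltransferase, was premalignant-only, with ranks of 45387 and 28955, against 148547 and 139544 in the whole malignant lists. Dnmt3b, the related enzyme, was marked in both malignant lists at 17402 and 27554 and in premalignant replicate 1 at 53041, and stood at 244940 in premalignant replicate 2. Against premalignant replicate 2 alone, 8 of the 33 genes were in both malignant lists, 24.2% against 2.55% of all genes, and 7 of these 8 were marked in premalignant replicate 1.

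B cell genes were marked in every list, and none of the 52 was malignant-only or premalignant-only. They numbered 18 and 5 in the premalignant lists and 15 and 8 in the malignant lists, and Ikzf1, Ikzf3, Bcl6 and Bach2, transcription factors of B lymphocytes, were in all 4 lists. No marker of the other blood lineages was in either set. Since the sets hold 0.881% and 0.474% of all genes, an absence from lists of these sizes carries little weight. T cell markers were marked at 1 and 1 of 11 genes in the premalignant lists and 0 and 2 in the malignant lists, myeloid markers at 3 and 0 of 10 and at 0 and 0, and erythroid markers at 0 of 6 in every list. The 3 of 10 myeloid markers in premalignant replicate 1 and the 2 of 11 T cell markers in malignant replicate 2 were shares of 30% and 18.2%, above the background of 18.7% and 11.2% in those lists and beside 34.6% and 15.4% for B cell genes. A UBTF summit at a gene start is not a measure of expression, so these lists check the sorted cell type only weakly.

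Among genes of cell cycle and replication, 21 and 4 of 61 were marked in the premalignant lists and 18 and 7 in the malignant lists, with none in either set. Of 25 glycolysis genes, 7 and 1 were marked in the premalignant lists and 6 and 0 in the malignant lists, and Slc2a1 was the premalignant-only member. Genes of the mitochondrial respiratory chain and ATP synthase, taken by the start of their symbols, were marked at 11 and 2 of 92 in the premalignant lists and 18 and 6 in the malignant lists, with Atp5d, Ndufv2 and Atp5g3 malignant-only and none premalignant-only. The list of translation initiation factor genes, which also held Eif2c4, was marked at 18 and 6 of 58 in the premalignant lists and 22 and 11 in the malignant lists, with Eif3j and Eif2b5 malignant-only. Potassium channel genes were marked at 14 and 7 of 96 in the premalignant lists and 8 and 20 in the malignant lists, with Kcnq5 and Kcnc1 among the 3 malignant-only members and Kcnmb4 premalignant-only. In these last lists the counts of 3, 2 and 3 malignant-only members are small and were not tested. They were shares of 3.26%, 3.45% and 3.13%, beside 0.881% of all genes. Premalignant-only genes were 0.474% of all genes, so their absence from lists of this size carries little weight.

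Large gene families gave further members on both sides. Of 371 zinc finger genes named Zfp, 4 entries were malignant-only, Zfp664 (listed as 2 gene entries), Zfp523 and Zfp516, and 5 were premalignant-only, Zfp821, Zfp609, Zfp839, Zfp706 and Zfp91. Of 355 solute carrier genes, Slc43a3, Slc35a1, Slc12a4 and Slc22a5 were malignant-only, and Slc2a1, Slc17a7 and Slc41a2 premalignant-only. Malignant-only shares were 1.08% of Zfp and 1.13% of solute carrier genes, beside 0.881% of all genes. Premalignant-only shares were 1.35% and 0.845%, beside 0.474% of all genes, and none of these was tested. Of 1113 olfactory receptor genes, which serve chiefly in the nose, Olfr8 was the only member of either set, and 26 and 6 were marked in the premalignant lists and 14 and 7 in the malignant lists, far under the background of each list. Proteasome, mitochondrial ribosomal protein, vomeronasal receptor, Hox and keratin genes had no member in either set.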

How the data were processed

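The authors' UBTF peak lists, 1 for each library, were used as deposited. According to the study's methods and the submitters' processing notes, 50-bp paired reads were mapped with bowtie2 (Bowtie in the notes) to mm9 joined to 1 rDNA copy, duplicate reads were discarded using Picard 1.110, and SPP was run on every library alone, before any test between replicates. The lists hold a score per peak, given by the authors' caller and not scaled between libraries, a deposited false discovery rate (a q-value, read only as a check) and a summit offset. Depth is unknown.

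Quoting, line ends and chromosome names were made alike, rDNA peaks were dropped, and the best 75000 by score were kept, ties in file order. Gene starts came from GENCODE M1. Libraries were compared with two-sided exact permutation tests (Python 3.11.15, numpy 2.4.6, pandas 2.3.3, scipy 1.17.1), sequence was read with pysam 0.24.0, 24-base words were counted with numba 0.67.0, and plots used matplotlib 3.10.9. Counting was tested on simulated lists. P-values measure the spread between these libraries.

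Named genes are the 12 with the lowest mean rank in each direction, up to 10 absent from the whole lists of the other stage, members of 26 gene lists, the 5 largest rank shifts and the genes nearest to each limit. The comparison, members and gene lists were chosen with earlier results of these data known. Some genes and sequences that these rules name are not reported here. Alternatives changed the number of peaks, the window, the definition of a start, summits sharing a region, and the libraries.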

Additional observations from a re-analysis of the deposited data

How the results depend on the processing

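Changing the window to 500 bp, letting the peak region cover the start, using any transcript start, or reversing the order of ties (the last chosen after seeing the data) kept the direction of each difference and every count within 1.5 times. With the best 50000 peaks 39 and 13 genes ranked better in malignant and premalignant cells, and the wild type shares were 58.4% of malignant-only and 61.4% of premalignant-only genes. With the best 25000 peaks there were 75 malignant-only and 16 premalignant-only genes, 146 and 150 against premalignant replicate 2 alone, 16 and 4 with better ranks, wild type shares of 44.0% and 56.3%, and a GC difference of 0.25 points, reversed. In whole lists these were 830 and 52, 1299 and 666, and 183 and 228, with 82.7% of premalignant-only genes in wild type and a reversed difference in summits at starts of -0.71 points. The whole lists differ in length, and the difference there was 3379 genes with a start summit and -1.99 points of GC. At 2 kb the difference in summits at starts was -0.03 points. With 1 summit per merged region, 358 genes were malignant-only, and 165 and 77 had better ranks. The differences under that setting were 1329.5 genes, 1.09 points of summits at starts and -0.75 points of GC. Leaving out 1 library at a time gave differences of -1148 to 1622 genes, -2.10 to 2.26 points of summits at starts and -4.35 to 3.61 points of GC, 297 to 1384 malignant-only and 251 to 1660 premalignant-only genes, 1576 to 2867 and 492 to 707 against premalignant replicate 2 alone, 204 to 259 and 117 to 220 with better ranks, and wild type shares of 43.8% to 84.8% and 52.2% to 88.0%. A set that needs only 1 list of a stage is larger by construction, and the cause of the other changes was not tested.

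With replicate number as a block, the mean differences stayed at 237 genes, 0.0813 points and -0.37 points (two-sided exact sign-flip p = 1, 1 and 0.5, the smallest possible). The numbers do not pair animals in the labels. Deviations from the stage mean of same-numbered libraries had a correlation of 0.226 over 22367 genes, which are not independent replicates, and with 2 pairs this does not make the design paired.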

Other observations

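Members of both sets were spread over the autosomes. Malignant-only genes made up 1.74% of the genes of chromosome 18 (9 of 517), 1.57% of chromosome 8 (17 of 1082) and 1.56% of chromosome 12 (11 of 704), beside 0.881% of all genes, and 0.107% of chromosome X (1 of 932). Premalignant-only genes made up 1.28% of the genes of chromosome 12 (9 of 704) and 0.840% of chromosome 5 (11 of 1309), beside 0.474% of all genes, and 0.107% of chromosome X (1 of 932). These shares rest on few genes, some of them with shared summits, and were not tested.

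At the 401 genes in all 4 lists the median rank was 18872 and 25801 in premalignant replicates 1 and 2 and 14367 and 14615 in malignant replicates 1 and 2. For the 197 malignant-only genes the median rank was 41470 and 36520 in the malignant lists, and for the 106 premalignant-only genes it was 38023 and 46140 in the premalignant lists. All these genes were chosen by the same ranks, so the weaker medians of the stage sets are a description and carry no test.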
